A study of Mus musculus with 36 samples.

Results

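The 8 genes described here encode proteins that bring long-chain fatty acids from the blood into heart cells and hold them there: Lpl, Gpihbp1, Cd36, Slc27a1, Fabp3, Fabp4, Fabp5 and Acsl1. Members were every probe set whose annotated symbol was one of these names, which gave 20 probe sets of the 45101 on the array. Transcript levels were measured in whole mouse hearts (OF1 strain) on Affymetrix Mouse430 2.0 arrays, 1 array per sample and 3 arrays per stage, at 12 stages and 36 arrays in total. The 10 embryonic stages ran daily, the first being E10.5 and the last E19.5, and were followed by young adults (10 weeks) and old adults. The labels give the old adults as 14 months, whereas the study's text gives a lower age. All samples were untreated and came from unmodified animals. At E10.5 and E11.5 the 3 samples were mixed male and female hearts, named mixed 1 to mixed 3 here. From E12.5 on each stage had 1 female, 1 male and 1 mixed sample. By the study's methods the 3 samples of a stage were biological replicates in separate tubes, and a female or male fetal sample came from 1 pup. The number of hearts in a mixed sample is not given in the sources used here.

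Heart muscle draws much of its energy from fatty acids after birth, whereas the fetal heart relies largely on glucose and lactate. Fatty acids reach the heart bound to albumin or packed as triglyceride in lipoproteins. Lipoprotein lipase (Lpl) splits the triglyceride at the capillary wall, where Gpihbp1, a protein of capillary endothelium, carries and anchors the enzyme. Cd36 and the fatty acid transport protein Slc27a1 (FATP1) take up the freed fatty acids at the cell membrane. Fatty acid binding proteins carry them in the cytosol: Fabp3 is the heart and muscle form, Fabp4 the form of adipocytes and capillary endothelium, and Fabp5 the epidermal form, also found in endothelium. Acsl1, a long-chain acyl-CoA synthetase, couples the fatty acid to coenzyme A, the step that precedes both oxidation and storage.

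In RefSeq's mouse build GRCm38.p6, Fabp5 (chr3:10012585-10016610) and Fabp4 (chr3:10204342-10208616) both lay on chromosome 3 and Fabp3 lay at chr4:130308738-130315463. Cd36 lay at chr5:17781690-17888959 and Gpihbp1 at chr15:75596630-75598213. Chromosome 8 held Acsl1 (46471037 to 46536051), Lpl (68880555 to 68906932) and Slc27a1 (71568728 to 71587307). Promoter windows of 300 bases were at hand for 4 of the 8 genes (Cd36, Slc27a1, Fabp3 and Acsl1; 7 windows). They were searched on both strands for AGGTCA, the half-site of PPAR and related nuclear receptors, for a direct repeat of it with 1 base between, and for TATAAA. By design the half-site overlaps the direct repeat. The half-site occurred in 16.3% of all 32851 windows, the direct repeat in 0.0396% and TATAAA in 13.6%. Among the members' windows the single match was 1 half-site in Cd36, and the other windows held none of these letters. The 250 bases upstream of the annotated start are shown for Cd36, with the half-site (read on the opposite strand) in capitals, and for Fabp3, whose window held no match. The Cd36 window is chr5:17835897-17836146 on the minus strand and the Fabp3 window is chr4:130308488-130308737 on the plus strand.
Cd36: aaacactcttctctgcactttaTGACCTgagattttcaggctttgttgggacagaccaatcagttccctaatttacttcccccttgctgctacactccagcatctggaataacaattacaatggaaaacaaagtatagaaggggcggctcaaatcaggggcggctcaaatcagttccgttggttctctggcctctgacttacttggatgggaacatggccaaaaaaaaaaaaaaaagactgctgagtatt
Fabp3: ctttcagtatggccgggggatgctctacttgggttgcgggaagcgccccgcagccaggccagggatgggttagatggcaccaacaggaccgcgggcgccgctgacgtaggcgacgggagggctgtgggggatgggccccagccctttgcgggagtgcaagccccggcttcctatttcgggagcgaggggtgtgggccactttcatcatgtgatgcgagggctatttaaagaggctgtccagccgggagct
The Cd36 window lies inside the gene's annotated span, at one of its downstream starts. A match describes letters only, and binding was not measured.

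Values are log2 intensities. Each gene was read from its probe set with the highest mean over the 36 arrays, and the other probe sets are given by their values. A stage mean under 5 is close to the median of all probe sets (4.002 to 4.197 per array). Such a level is called low here, and a fold change against it depends on the background correction. Of the 20 probe sets, 17 exceeded 5 in at least 1 stage. The other 3 were Acsl1 sets (1460316_at, 1422526_at and 1447355_at). Following the study, a probe set was called differentially expressed (DEG) where its adjusted p was below 1e-05, its level differed by more than 2 log2 units in either direction (4-fold) and at least 1 of its stage means exceeded 5. These p-values come from 1 limma model of all 12 stages, with Benjamini-Hochberg adjustment over all probe sets.

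Some facts of the arrays touch all results. Cardiomyocyte markers (5 of 6 listed genes measured) were high at every stage, with a mean log2 intensity of 10.3 to 11.5 on every array. An extraction label names liver, but none of 5 measured liver markers (Alb, Apoa1, Apoa2, Ttr and Afp) exceeded a stage mean of 5. The mean of the 18 hybridization control probe sets was 9.68 to 11.3 on the arrays of E10.5 to E13.5, 10.6 to 12.0 from E14.5 to E19.5, 12.0 to 12.4 in young adults and 11.2 to 11.6 in old adults. This technical level thus moved with stage. In young adults it did not overlap E10.5 (9.68 to 10.3), E19.5 (11.0 to 11.4) or old adults. Where it is used as a covariate below, these comparisons extend a slope from within stages past any control level the groups share. Such values cannot separate control level from stage and are given as a description. In bulk tissue, fewer cells of a type and less RNA per cell cannot be told apart.

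Of the 8 genes, 7 were lower in the youngest hearts than in young adults, and Fabp5 was higher. At E10.5, 14 of the 20 probe sets, from 7 genes, were called lower than young adult and none was called higher. The read probe set was called for 6 genes, all but Slc27a1 and Fabp5. Slc27a1 was counted through 1435658_at alone, whose young adult arrays were scattered (SD 0.67) with 1 high array, the female. Over all probe sets 2.1% were called lower (4.57% of those above 5 in a stage) and 4.43% higher. The median log2 fold change was -2.33 over the 20 probe sets and -0.19 over all probe sets. Centring each array on its median expressed probe set shifted the median of all differences by -0.53 and raised the share of DEGs that were lower from 32.1% to 62.5%. The member count was then 15 lower and 0 higher.

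**Figure D1:**
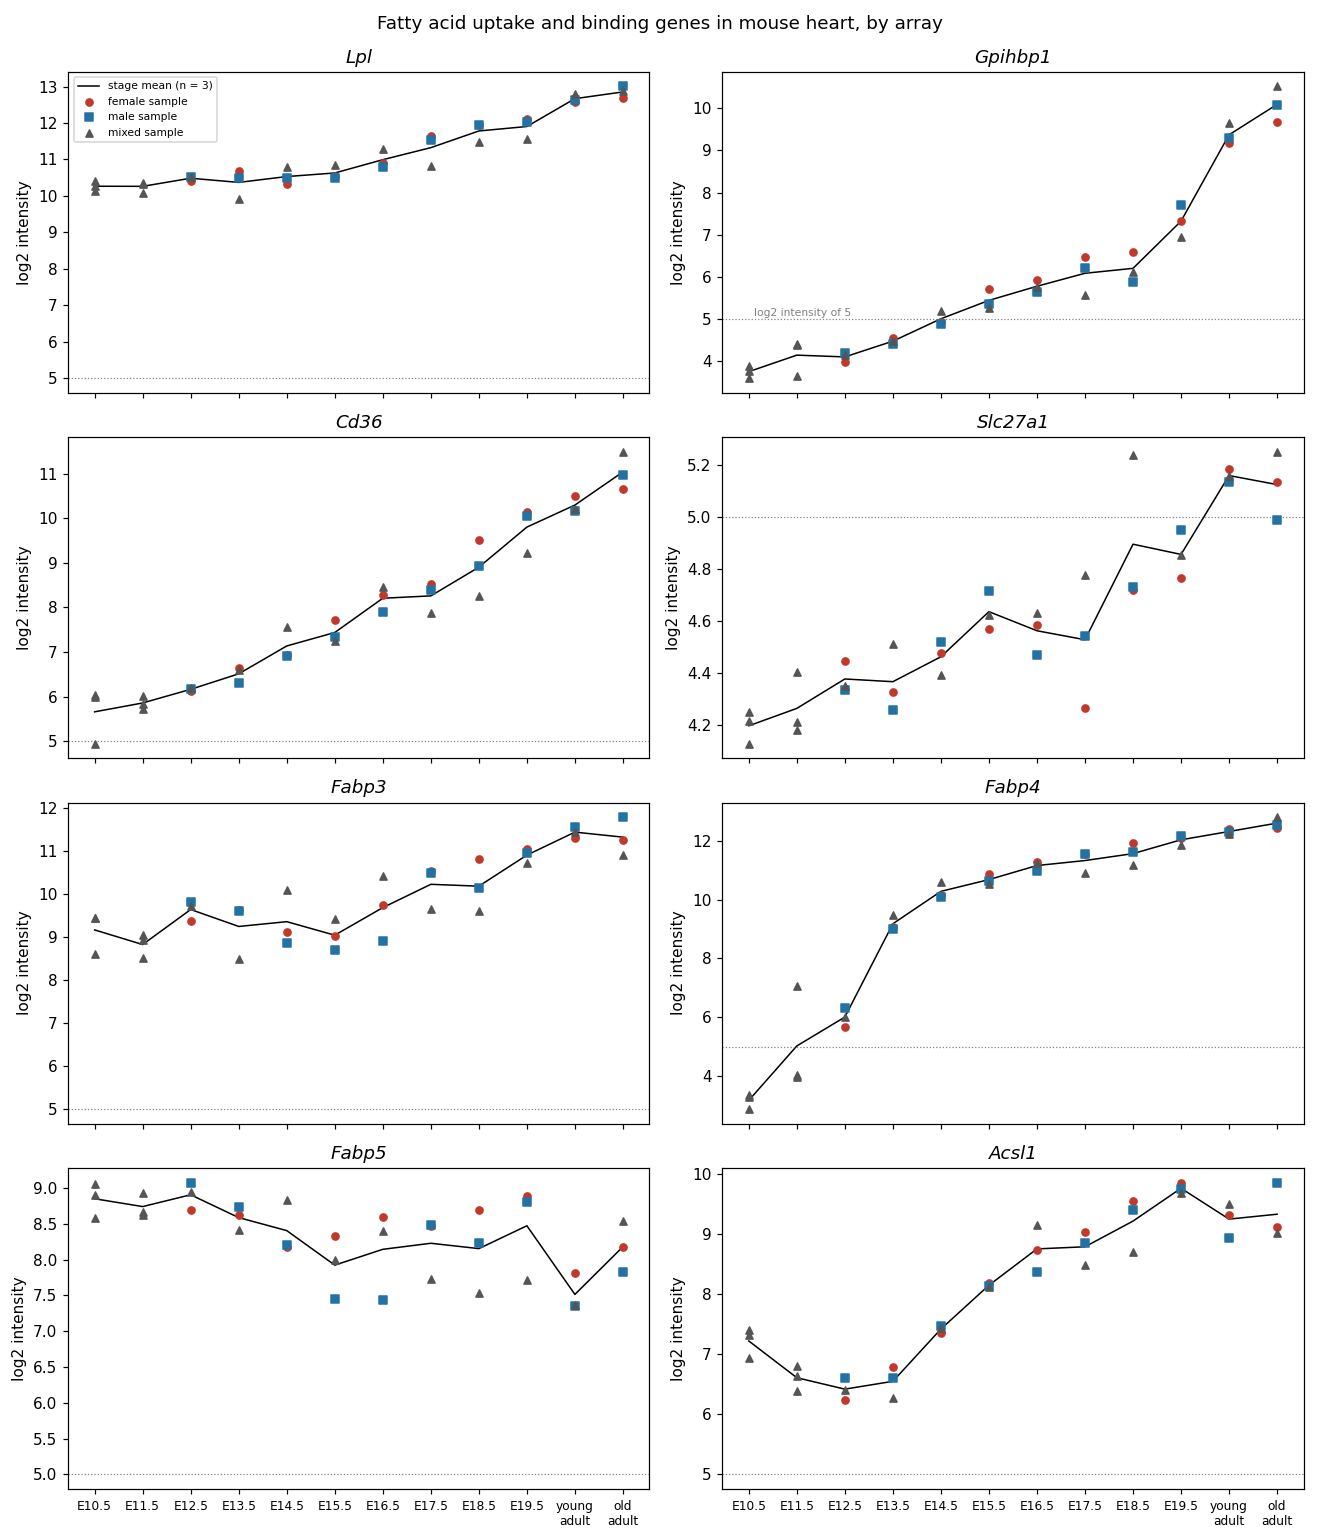
Log2 intensity (y axis) of the probe set read for each gene on every array, by stage (x axis, stages equally spaced). Symbols mark female, male and mixed samples, lines join stage means of 3 arrays, and the dotted line marks 5. Fabp4 spans the widest range, from 3.17 at E10.5 to 12.60 in old adults, and Fabp5 alone is lowest in young adults.

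The called count fell with age of the embryo. It was 13 probe sets at E11.5, where 1.84% of all probe sets were called lower. It was 11 on both following days (E12.5, 1.75%, and E13.5, 1.66%), and E14.5 gave 9 (1.52%). E15.5 gave 7 (1.58%), and E16.5 and E17.5 gave 5 each (1.25% and 1.2%), before 3 were left on E18.5 (1.01%). At E19.5 only Gpihbp1 was called lower (0.634% of all probe sets were) and no member was called higher (0.818%). The 5 of E17.5 were Gpihbp1, all 3 Cd36 sets and the Fabp4 set 1425809_at. The 3 of E18.5 were Gpihbp1, the Cd36 set 1450883_a_at and the same Fabp4 set. Between E10.5 and E19.5, 11 of the 20 probe sets, from 5 genes, were called lower at E10.5, against 0.698% of all probe sets and 1.52% of those above 5. For E19.5 against young adult the share above 5 was 1.38%.

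**Figure D2:**
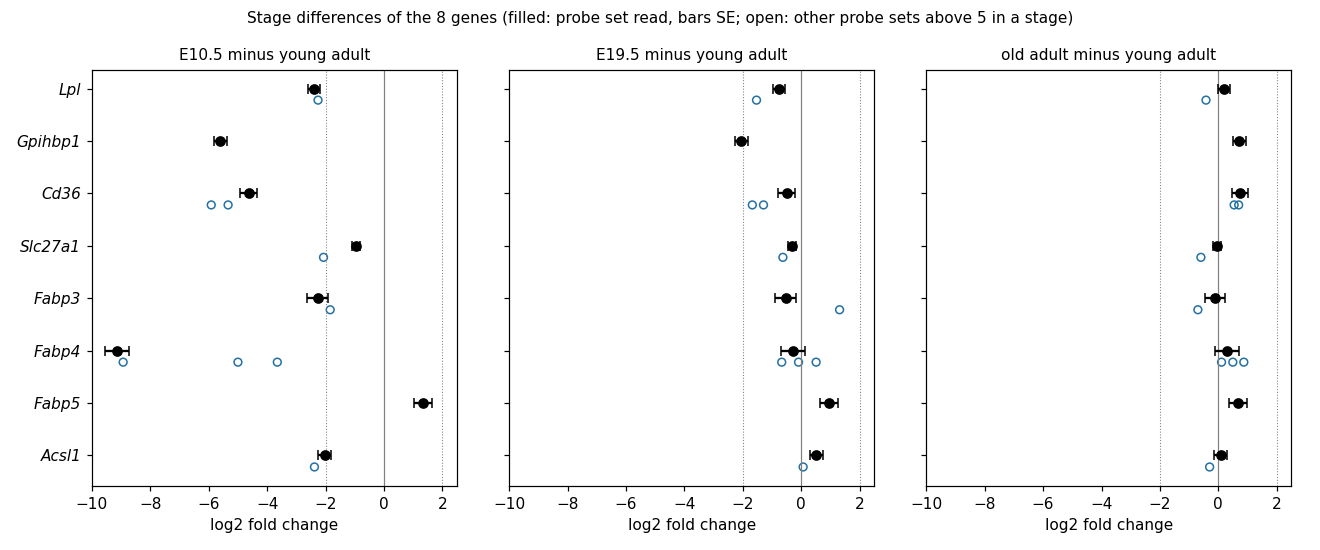
Log2 fold change (x axis) against young adult for each gene (y axis), in panels for E10.5, E19.5 and old adults. Filled points with SE bars are the probe sets read, open points the other probe sets above 5 in a stage, and dotted lines mark a fold change of 4. At E10.5 all genes but Fabp5 lie left of 0, and at E19.5 only Gpihbp1 reaches the limit.

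Lpl, the lipase itself, was high from the start. Its 3 arrays read 10.26, 10.40 and 10.14 at E10.5, and 12.57 (female), 12.63 (male) and 12.79 (mixed) in young adults. The groups did not overlap, and the log2 fold change was -2.40 (SE 0.20, limma adjusted p = 9.7e-12), a 5.28-fold lower level at E10.5. The stage mean stayed between 10.26 and 10.63 through E15.5, then rose to 11.90 at E19.5. At E19.5 the arrays read 12.11, 12.04 and 11.57, all below young adult (-0.76, SE 0.20, adjusted p = 0.00372). The other probe set, 1431056_a_at, differed more at that stage (-1.53, adjusted p = 1.02e-06). Set against E19.5, the E10.5 level of the read probe set differed by -1.64 (adjusted p = 9.12e-08) and the other by -0.73 (adjusted p = 0.00589).

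Gpihbp1, the capillary anchor of Lpl, was low in the early heart and still below the adult at E19.5. It read 3.60, 3.89 and 3.79 at E10.5, a low level, and 9.17 (female), 9.29 (male) and 9.64 (mixed) in young adults. The log2 fold change was -5.61 (SE 0.23, adjusted p = 4.36e-19), or 48.8-fold. Stage means first passed 5 at E14.5 (5.01) and reached 6.20 at E18.5. At E19.5 the arrays read 7.32, 7.70 and 6.95, all above E18.5 (6.602, 5.89 and 6.12). This step of 1.12 (SE 0.23, adjusted p = 0.00975) was the largest daily step of the gene. The level at E19.5 was still 4.12-fold below young adult (-2.04, SE 0.23, adjusted p = 2.28e-08). That call was lost without the E19.5 mixed array (-1.86) and without the young adult mixed array (-1.91), since the fold change then fell inside the limit, and with the 6 arrays alone (adjusted p = 5.71e-05).

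Cd36, the main fatty acid receptor of heart and capillary, rose on each of the 9 daily steps of its stage means. It read 5.998, 6.04 and 4.94 at E10.5 and 10.51 (female), 10.17 (male) and 10.21 (mixed) in young adults, with no overlap. The log2 fold change was -4.64 (SE 0.28, adjusted p = 8.33e-15), a 24.9-fold difference. The array mixed 3 at E10.5 lay about 1 unit below its partners, and had the highest hybridization control level of its stage (10.3 against 9.68 on both others). The other probe sets gave -5.34 (1450883_a_at) and -5.91 (1450884_at). At E19.5 the read probe set was at 9.80 ± 0.51 (SD, n = 3) and did not pass against young adult (-0.49, SE 0.28, adjusted p = 0.206), although its arrays (10.14, 10.06 and 9.21) all lay below. It passed with median centring (-0.68, adjusted p = 0.0345) and with the hybridization control covariate (-1.23, adjusted p = 0.000876). Both other probe sets did pass (-1.67, adjusted p = 9.1e-05, and -1.29, adjusted p = 3.2e-06). The 3 probe sets therefore place the late fetal level of Cd36 from 1.41-fold to 3.19-fold below the adult.

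Slc27a1, the transport protein, was low on this array at all embryonic stages and barely above 5 in adults. It read 4.21, 4.13 and 4.25 at E10.5 and 5.19, 5.13 and 5.16 in young adults. The difference of -0.97 (SE 0.13, adjusted p = 2.09e-07) was under the 4-fold limit. With the hybridization control covariate it was -0.36 and did not pass (adjusted p = 0.28). The second probe set, 1435658_at, was called (-2.07, SE 0.23, adjusted p = 3.31e-09). Its young adult arrays were scattered, at 6.38 (female), 5.11 (male) and 5.35 (mixed), with an SD of 0.67. At E19.5 the first did not pass (-0.30, adjusted p = 0.0805), but did with quantile normalization (-0.47, adjusted p = 0.00796) and median centring (-0.49, adjusted p = 0.0364). The second passed (-0.63, adjusted p = 0.0352). The high young adult female array adds to both differences of this second set.

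Fabp3, the heart binding protein, was abundant from E10.5 but scattered between arrays of a stage. It read 9.44, 9.44 and 8.61 at E10.5 and 11.30 (female), 11.56 (male) and 11.44 (mixed) in young adults, without overlap. The log2 fold change was -2.27 (SE 0.35, adjusted p = 2.35e-06), or 4.83-fold. Leaving out E10.5 mixed 3 brought it to -1.99 and ended the call. Stage means moved between 8.82 and 9.68 up to E16.5, with SDs as large as 0.76, and climbed to 10.90 ± 0.17 at E19.5. At that stage the arrays (11.04, 10.94 and 10.71) all lay below young adult, but the difference did not pass (-0.53, SE 0.35, adjusted p = 0.28). With the hybridization control covariate it was -1.78 and passed (adjusted p = 7.66e-07), and the E10.5 difference was -5.07. Both values extend past the control levels that the groups share. The second probe set, 1444844_at, had another shape. Its mean of 4.58 at E10.5 had risen to 7.74 by E19.5 (E10.5 minus E19.5 -3.16, adjusted p = 2.77e-09) and was lower in young adults (6.42) than at E19.5. That difference of 1.32 (SE 0.32, adjusted p = 0.00189) ran against the read probe set. Which transcripts 1444844_at detects is not given in the files.

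**Figure D3:**
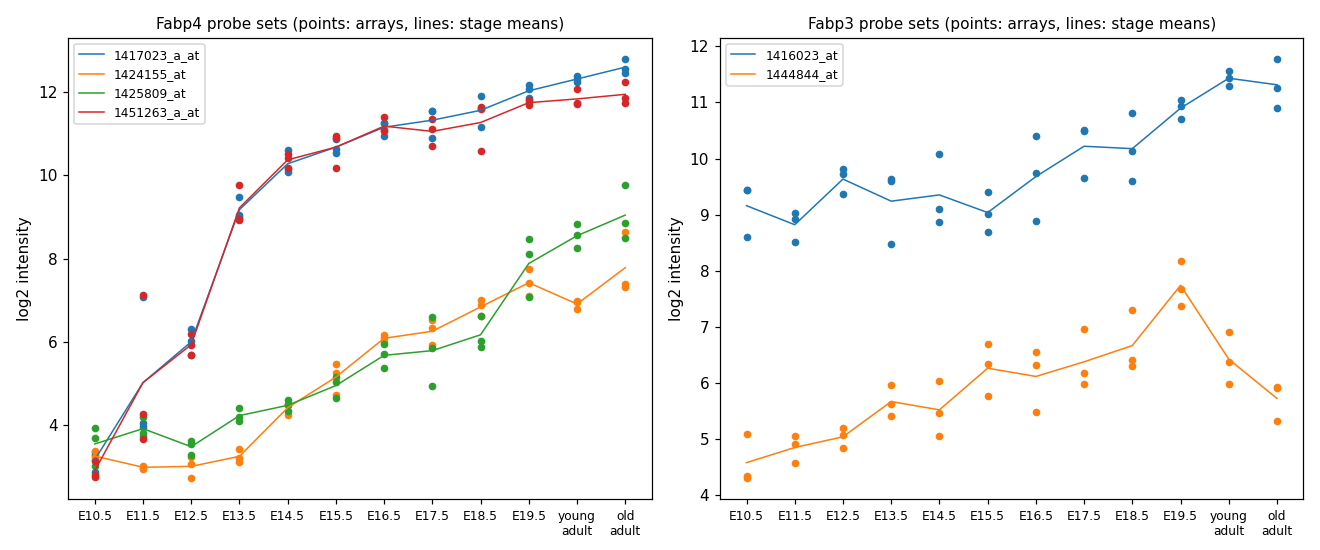
Log2 intensity (y axis) of all Fabp4 and Fabp3 probe sets by stage (x axis, equally spaced), with arrays as points and stage means as lines. The 2 brightest Fabp4 sets rise together from E10.5 and the 2 dimmer ones from E13.5 on. Fabp3 1444844_at peaks at E19.5 (7.74) while 1416023_at is highest in young adults (11.43).

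Fabp4, the adipocyte and endothelial binding protein, changed most of the 8. It read 3.35, 2.87 and 3.28 at E10.5 and 12.39 (female), 12.31 (male) and 12.23 (mixed) in young adults. The log2 fold change was -9.15 (SE 0.42, adjusted p = 5.91e-18). On the linear scale the young adult level was 566-fold higher, a value that depends on the background at E10.5. A second probe set, 1451263_a_at, gave -8.93. The dimmer sets 1425809_at and 1424155_at gave -5.00 and -3.65. The largest daily step lay between E12.5 and E13.5. At E12.5 the arrays of the read set were at 5.68 (female), 6.31 (male) and 6.01 (mixed), and at E13.5 they were at 9.05, 9.002 and 9.47. This step of 3.17 (SE 0.42, adjusted p = 0.000121) was 9.03-fold, and 1451263_a_at rose by 3.29 (adjusted p = 0.000156). The dimmer sets moved less there, from 3.48 to 4.23 (1425809_at) and from 3.01 to 3.25 (1424155_at). Their largest steps came later, between E18.5 and E19.5 for 1425809_at and between E13.5 and E14.5 for 1424155_at. By E19.5 the arrays of the read set (12.08, 12.16 and 11.86) were just under young adult (-0.28, SE 0.42, adjusted p = 0.664).

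At E11.5 Fabp4 rested on 1 array. Mixed 1 and mixed 2 read 4.04 and 3.95, and mixed 3 read 7.07, above every E12.5 array. Over the whole array, the 2 bright Fabp4 sets showed the largest excess of mixed 3 over its partners (3.17 for 1451263_a_at and 3.07 for 1417023_a_at). Next came Myom2, a sarcomere protein (2.47), and Dpt, the matrix protein dermatopontin (1.78). Only 3 probe sets were more than 2 units higher on that array, out of 11 that differed by more than 2. By distance over all probe sets, mixed 3 lay nearest to the E12.5 female array rather than to its own stage. Arrays of other stages did likewise, among them E10.5 mixed 3 (nearest to E11.5 mixed 1) and E13.5 mixed (nearest to E14.5 female). The step from E10.5 to E11.5 passed for both bright sets (1.85, SE 0.42, adjusted p = 0.0141, and 2.12, adjusted p = 0.0107), against 2.53% of all probe sets. Without mixed 3 it was 0.83 (adjusted p = 0.0811), without E10.5 mixed 1 it was 1.94 (adjusted p = 0.063) and without E10.5 mixed 2 it was 1.70 (adjusted p = 0.143). What sets mixed 3 apart was not tested.

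Fabp5, the epidermal binding protein, ran the other way. It read 8.91, 9.06 and 8.58 at E10.5 and 7.81 (female), 7.36 (male) and 7.37 (mixed) in young adults, without overlap. The log2 fold change was 1.34 (SE 0.31, adjusted p = 0.000416), a 2.52-fold higher level at E10.5 that was under the 4-fold limit. It was smaller, at 0.81, after each array was centred on its median expressed probe set (adjusted p = 0.00584). With the hybridization control level as a covariate it was -0.61 (adjusted p = 0.369). At E19.5 the female and male arrays read 8.88 and 8.81, the mixed array 7.72, inside the young adult range. The mean difference of 0.96 (SE 0.31) passed (adjusted p = 0.0169), and with the same covariate it was 0.09 (adjusted p = 0.848). It no longer passed without the E19.5 female (0.75, adjusted p = 0.109) or male array (0.79, adjusted p = 0.0895), or without the young adult male (0.88, adjusted p = 0.0612) or mixed array (0.89, adjusted p = 0.0589). Between E10.5 and E19.5 the difference did not pass (0.38, adjusted p = 0.31) and turned negative under quantile normalization (-0.03). The mouse genome also holds processed copies of Fabp5, and whether they reach its probe set was not tested.

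Acsl1, the synthetase that activates fatty acids, was lower at E12.5 than at E10.5 and close to the adult level at E19.5. Its arrays read 7.31, 7.41 and 6.94 at E10.5, then 6.25 (female), 6.61 (male) and 6.41 (mixed) at E12.5. By E14.5 they were back at 7.36, 7.47 and 7.43. All E12.5 arrays were below all E10.5 arrays. No daily step of this probe set passed. It reached 9.86, 9.75 and 9.69 at E19.5, all above the young adult arrays (9.32, 8.93 and 9.50). The excess of 0.51 (SE 0.22) did not pass (adjusted p = 0.0776), passed with quantile normalization (0.49, adjusted p = 0.0281) and was -0.17 with the hybridization control covariate. E10.5 was lower than E19.5 by 2.54 (SE 0.22, adjusted p = 9.88e-11) and lower than young adult by 2.03 (SE 0.22, adjusted p = 2.61e-09), or 4.08-fold. The last call lay at the limit and ended when E10.5 mixed 3 (-1.89), the young adult female (-1.99) or the young adult mixed array (-1.91) was left out, whereas 1450643_s_at gave -2.38. The suffix of that set marks probes that may match transcripts of more than 1 gene.

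The order in which the genes approached the adult level was described as the share of the log2 rise from E10.5 to young adult. The read Fabp4 set had the highest share by E13.5 (65.7%) and reached 96.9% by E19.5. Its rise was measured from a low start of 3.17, and the dimmer Fabp4 sets were at 13.6% (1425809_at) and -0.162% (1424155_at) by E13.5. Acsl1 was below its start by E13.5 (-33.1%), at 75.6% by E16.5 and at 125% by E19.5, an excess that did not pass. Cd36 had covered 18.4% by E13.5, 54.9% by E16.5 and 89.4% by E19.5. Fabp3 was at -5.39% at E15.5 and 76.5% at E19.5. Lpl reached 68.2%, Slc27a1 68.5% and Gpihbp1 63.5% at E19.5. This order holds for the read probe sets only. At E19.5 Lpl 1431056_a_at was at 32.3%, Cd36 1450883_a_at at 68.7% and 1450884_at at 78.2%. Slc27a1 1435658_at was at 69.8%, Fabp3 1444844_at at 171% and Acsl1 1450643_s_at at 103%. The shares of Lpl, Slc27a1, Fabp3 and Acsl1 carry the wide errors of small rises, and their order at E19.5 was not tested. Across the 12 stage means, which share the arrays and the adult end point, Pearson's r ran from 0.685 to 0.973 among the 7 rising genes (21 pairs) and from -0.783 to -0.554 between Fabp5 and the others.

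**Figure D4:**
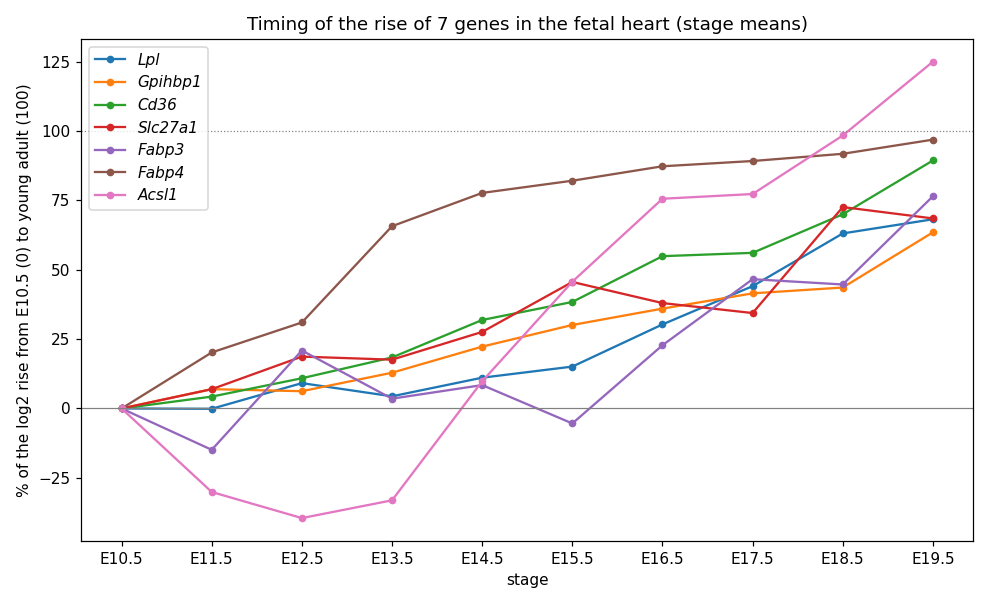
Stage means of the 7 rising genes as a percentage of the log2 rise from E10.5 (0) to young adult (100; dotted), by embryonic stage. Only the read probe set of each gene is shown. Fabp4 is at 65.7% by E13.5, Acsl1 dips below 0 until E13.5 and ends at 125%. Gpihbp1 ends lowest of the sets shown, at 63.5%.

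Consecutive days asked when the changes occurred. In all, 9 tests of a member probe set passed at an adjusted p under 0.05, each a rise, and with quantile normalization 15 did. Besides the 2 Fabp4 sets at E11.5, the same 2 sets passed from E12.5 to E13.5 (all probe sets 1.25%). From E13.5 to E14.5, Cd36 1450884_at (1.07, adjusted p = 0.0117) and Fabp4 1424155_at (1.17, adjusted p = 0.0302) passed, where 0.0599% of all probe sets did. From E18.5 to E19.5, Gpihbp1, Fabp4 1425809_at (1.71, adjusted p = 0.00613) and the low Acsl1 set 1422526_at (0.75, adjusted p = 0.0308) passed, where 1.33% of all probe sets did. No member passed in limma at the other steps, from E11.5 to E12.5 (all probe sets 0.0976%), E14.5 to E15.5 (0.0377%), E15.5 to E16.5 (0.0111%), E16.5 to E17.5 (0.0133%) and E17.5 to E18.5 (0%). At these steps 3, 5, 6, 3 and 5 of the 20 probe sets had an unadjusted p under 0.05, and no other tool was run. Without regard to any test, E17.5 was above E16.5 for 18 of 20 probe sets, and E19.5 was above E18.5 for 18 of 20. The count was 17 of 20 on each day from E14.5 to E16.5, so these 2 steps do not stand out. The median difference of all probe sets was 0.027 at E17.5 and -0.0063 at E19.5, and their share by direction was not counted. Several of the 20 sets read the same gene.

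Within late stages 1 array often lay below its partners. The mixed array was the lowest of its stage for 7 of the 8 genes at E17.5, for 6 on the following day and for 7 on the last fetal day. Slc27a1 was an exception on all 3 days, and Gpihbp1 on E18.5. At E16.5 the male array was lowest for all 8. Each of these arrays had the highest hybridization control level of its stage (12.0, 11.6, 11.4 and 11.6). The part of the array in these differences was not tested. With that level as a covariate, chosen after the data were seen, 19 tests of daily steps passed in place of 9.

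Age in the adult was compared next. None of the 8 read probe sets passed between old and young adults, and 1 of 20 probe sets did, against 6.96% of all probe sets. This was Fabp4 1424155_at, higher in old adults by 0.87 (SE 0.23, adjusted p = 0.0187). The other Fabp4 sets differed by 0.29, 0.11 and 0.50 without passing. The call was lost without the old adult mixed array (0.45, adjusted p = 0.177) and without the young adult mixed array (0.82, adjusted p = 0.0655). It was also lost with quantile normalization (0.66, adjusted p = 0.0602), with the hybridization control covariate (0.72, adjusted p = 0.107), with the 6 arrays alone and with sex as a block. Gpihbp1 read 9.67 (female), 10.08 (male) and 10.51 (mixed) in old adults, all above young adults, a difference of 0.72 (SE 0.23) that missed the threshold (adjusted p = 0.0511). Cd36 read 10.65, 10.97 and 11.49, also all above young adults (0.74, SE 0.28, adjusted p = 0.106). Fabp5 read 8.18, 7.82 and 8.54 (0.67, SE 0.31, adjusted p = 0.185). Lpl (0.18), Fabp3 (-0.12), Slc27a1 (-0.03) and Acsl1 (0.08) overlapped between the ages. With the hybridization control covariate Fabp3 was lower in old adults (-1.11, adjusted p = 0.00398). Leaving out the old adult female array raised the count to 4 probe sets, with Gpihbp1 (0.93, adjusted p = 0.018) and 2 Cd36 sets added. Leaving out the young adult male array raised it to 2, with Slc27a1 1435658_at added (-0.85, adjusted p = 0.0343). Of 9 measured markers of endothelium, 3 passed between the ages, against the same 6.96% of all probe sets. Kdr (0.81, adjusted p = 0.0072), Eng (0.50, adjusted p = 0.0215) and Pecam1 (1.19, adjusted p = 0.014) were higher in old adults. The other markers did not pass, with differences from 0.028 (Aqp1) to 0.82 (Emcn). The median of the 9 was 0.56, against -0.019 over all probe sets. The part of endothelium in the values of Gpihbp1, Cd36 and Fabp4 was not tested.

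Sex was compared as 9 pairs of male and female samples with stage as a block. E12.5 was left out, as in the study. No member probe set passed in limma, 3 of 20 had an unadjusted p under 0.05, and 0.0488% of all probe sets passed. Fabp5 had the lowest value. It was lower in males by 0.36 (SE 0.12, limma adjusted p = 0.547). Its level was below that of the female partner in 6 of 9 male samples. Cd36 was lower in 8 of 9 male samples, with a mean difference of -0.22 (SE 0.09, adjusted p = 0.598). The other Cd36 sets were each lower in 5 of 9 male samples, with differences of 0.043 (1450883_a_at) and -0.091 (1450884_at). Whether the sex difference changed from the 7 fetal to the 2 mature pairs was tested as an interaction. No member passed, 2 had an unadjusted p under 0.05, and 0.548% of all probe sets passed. Fabp3 had the lowest adjusted p (0.163), with mean male minus female differences of -0.32 in fetal and 0.39 in mature hearts. Its other probe set, 1444844_at, ran the other way, with -0.035 in fetal and -0.49 in mature hearts.

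Cell type markers give a frame for genes that several cell types use. Of 6 adipocyte markers 5 were measured (Adipoq, Cfd, Retn, Lep and Cidec), and none exceeded a stage mean of 5 in any embryonic stage. Their mean log2 intensity was 2.61 to 3.21 on the embryonic arrays, 4.10 to 5.70 in young adults and 3.55 to 5.10 in old adults. Fabp4 was thus at 9.18 in hearts where these markers were low, at E13.5. In young adults Cfd was at 7.5 and Adipoq at 5.1. Of 10 endothelial markers 9 were measured, and their mean rose from 5.67 to 6.18 on the E10.5 arrays to 6.38 to 7.13 at E19.5, 7.55 to 7.65 in young and 7.95 to 8.46 in old adults. Between E10.5 and young adult 2 of the 9 were called lower (Aqp1, -5.72, and Cldn5, -2.98), with a median of -1.15. Tek ran the other way without passing (0.74, limma adjusted p = 0.0523), and Tie1 did not pass (-0.20, limma adjusted p = 0.416). Of 6 macrophage markers, 4 were called lower at E10.5, with a median of -4.14. Over all probe sets 2.1% were called lower at E10.5 (4.57% of those above 5 in a stage). Brown adipocyte markers stayed low for Ucp1 (3.0 at E19.5) and reached 5.0 for Cidea in young adults. Erythroid markers (4 of 5 measured) had a mean of 4.80 to 5.51 on the E10.5 arrays and 3.90 to 4.34 in young adults. The part of these cell types in the values of the 8 genes was not tested.

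Other genes of fatty acid handling were taken from 8 lists, of which 46 of 48 genes were measured. At E10.5, 7 were called lower and 2 higher than young adult, with a median of -0.45 (-0.19 over all probe sets). Called lower were 15.2% of them, against 2.1% of all probe sets, and called higher 4.35%, against 4.43%. Of the 46 genes, 30 exceeded 5 in a stage, as a call requires. Among all probe sets above 5 in a stage, 4.57% were called lower. With median centring 11 were called lower. At E19.5 none was called lower and 2 higher (all probe sets 0.634% and 0.818%). Between E10.5 and E19.5, 8 were called lower at E10.5 (0.698% of all probe sets and 1.52% of those above 5). Among the lipid droplet genes, 4 of 11 were called lower at E10.5. They included Plin5 (-5.32, adjusted p = 8.47e-19) and Plin4 (-4.27, adjusted p = 7.98e-17), coat proteins of droplets, and Mgll, the monoglyceride lipase (-5.05, adjusted p = 5.52e-18). Cav1, the caveolar protein that also acts in fatty acid uptake, was 1 of 3 membrane and cytosol carriers and was called (-4.63, adjusted p = 1.07e-16). Among the 3 PPAR nuclear receptors and their coactivator Ppargc1a, Pparg alone was called at E10.5 (-2.04, adjusted p = 1.16e-07), at a level of 2.9 at E10.5 and 4.9 in young adults. Ppara, at 4.7 at E10.5 and 6.7 in young adults, lay just inside the 4-fold limit (-1.9993, limma adjusted p = 4.76e-09). Set against E19.5, its E10.5 level was called lower (-2.0001, limma adjusted p = 1.62e-08). Ppard (-0.099) and Ppargc1a (0.095) did not pass at E10.5 against young adult.

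The regulators of capillary lipolysis split. Vldlr, the very low density lipoprotein receptor, was lower at E10.5 (-2.28, adjusted p = 1.35e-12) and level with the adult at E19.5 (0.31, adjusted p = 0.193). Angptl4, an inhibitor of Lpl, was at 4.7 at E10.5 and 5.2 in young adults but 8.0 at E19.5, above young adult by 2.75 (SE 0.17, adjusted p = 9.95e-14). The 8 other genes of that list were not called. Of the 4 other long-chain synthetases, 2 were higher than young adult at E10.5, where Acsl1 was lower. Acsl3 was higher at E10.5 (4.18, SE 0.35, adjusted p = 1.28e-11) and at E19.5 (2.64, adjusted p = 5.23e-07), and Acsl4 was higher at E10.5 (2.63, SE 0.34, adjusted p = 8.26e-08). Acsl5 did not pass at E10.5 (0.28, adjusted p = 0.157) and was lower than young adult at E19.5 (-0.89, adjusted p = 0.000207), and Acsl6 stayed low at every stage. No gene of the other transport protein and binding protein lists was called. Between the ages 4 of 46 passed (8.7%), near the 6.96% of all probe sets. Sel1l (0.47, adjusted p = 0.0225), which helps Lpl mature, Acsl5 (0.62, adjusted p = 0.0289) and Gpam (0.57, adjusted p = 0.0453), an acyltransferase of glycerolipid synthesis, were higher in old adults, and Plin4 was lower (-0.73, adjusted p = 0.0354).

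**Figure D5:**
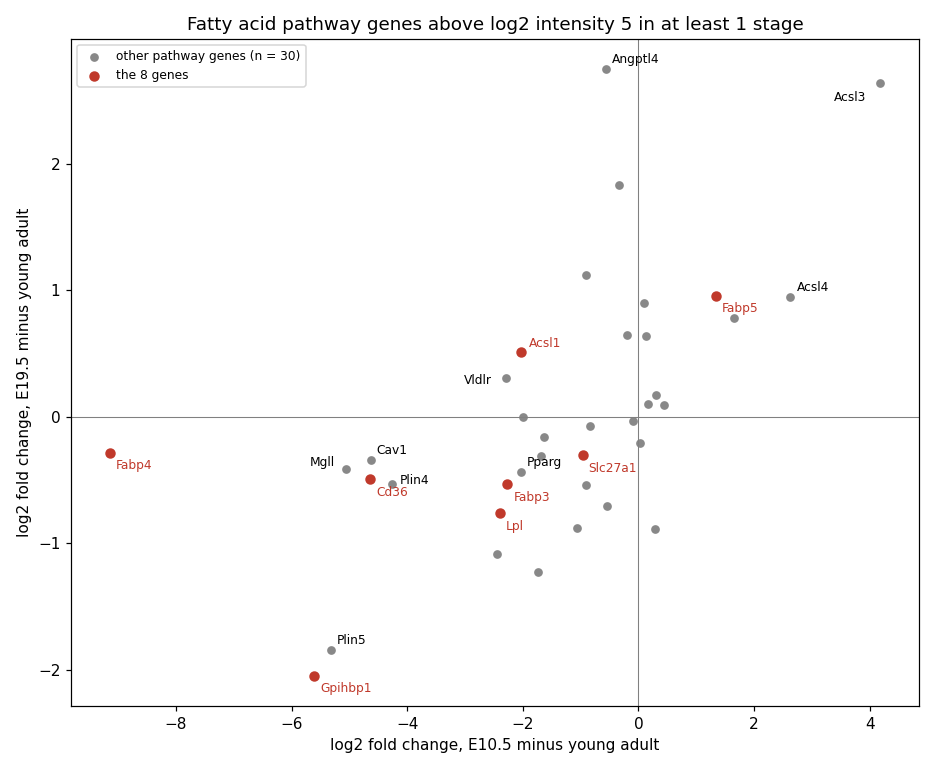
Log2 fold change against young adult at E10.5 (x axis) and E19.5 (y axis) for the 8 genes (red) and 30 other pathway genes above 5 in a stage (grey). Both axes share the young adult arrays. Acsl3 and Acsl4 lie at the right with Fabp5, Angptl4 stands at the top (2.75), and Plin5 lies beside Gpihbp1 at the lower left.

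The genes whose 12 stage means were most like each member's, by Pearson's r among 13177 probe sets, are given as a description. For Gpihbp1 they were Abcb1a, Bcl6b and Cygb (0.997 to 0.994). For Cd36 they were Mgll, Ptgds and Arhgef15 (0.995 to 0.991), and for Fabp4 Dpt, Pou6f1 and Apln (0.995 to 0.987). Lpl was closest to Ckmt2, Klf9 and Neat1 (0.993 to 0.99), Slc27a1 to Fcgr2b, Clic5 and Trabd2b (0.988 to 0.981), and Fabp3 to Ndufv1, Pxmp4 and Myoz2 (0.979 to 0.967). Acsl1 was closest to a Fabp4 probe set (1424155_at, 0.982), Zbtb16 and Mypn (0.976). Fabp5 had the loosest matches, Haghl, Actr3 and Lars (0.937 to 0.936).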

How the data were processed

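Total RNA of whole hearts was amplified, biotin-labelled and hybridized by the authors. The deposited values are log2 intensities after robust multiarray averaging (RMA), 1 per probe set and array, with annotated symbols. The submitters' processing notes name Affymetrix Expression Console, RMA and Partek 6.6. RMA sets all arrays to 1 distribution before summarizing probes, and the files hold no detection calls, so weak signals cannot be told from background. From these values 1 model of 12 stage means was fitted in limma 3.58.1 (R 4.3.3) over 45101 probe sets, and tested on simulated data. The number of arrays limits the precision. Sex used a stage block.

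The members and lists were chosen with earlier results of these data known. Genes were read from the probe set of highest mean. From each pathway list up to 3 called genes of largest change were named, plus those passing between the ages. For likeness, stage means had to span more than 1 and pass 5. Of 89 listed genes 82 were matched by symbol. Alternatives were quantile normalization, centring, filtering, the 6 arrays alone, a trended robust variance, other limits, blocks, single arrays left out and other probe sets. A covariate of hybridization controls was added after the data were seen.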

Additional observations from a re-analysis of the deposited data

How the results depend on the processing

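Over the alternatives run, other probe sets aside, 406 values of the 8 genes kept their direction and their side of the threshold, 20 fell short of it, 16 came to pass it and 14 changed sign. No sign change, other probe sets included, touched the lower level at E10.5 of the 7 rising genes. With the hybridization control level as a covariate, chosen after seeing the data, Fabp5 turned to -0.61 (E10.5 minus young adult) and -0.70 (E10.5 minus E19.5), Acsl1 to -0.17 (E19.5 minus young adult), and between old and young adults Acsl1 to -0.46, Lpl to -0.30, Fabp5 to -0.022 and Slc27a1 to 0.18. Quantile normalization turned Fabp5 to -0.028 (E10.5 minus E19.5) and Acsl1 to -0.053 (old minus young), where median centring gave -0.062. Other probe sets gave 1.32 (Fabp3 1444844_at), 0.51 (Fabp4 1424155_at) and -0.062 (Acsl1 1447355_at) for E19.5 minus young adult. For old minus young they gave -0.42 (Lpl 1431056_a_at) and, for Acsl1, -0.30 (1450643_s_at), -0.31 (1422526_at) and -0.070 (1447355_at). Leaving out single arrays, old minus young ran from -0.10 to 0.033 for Slc27a1, -0.35 to 0.086 for Fabp3 and -0.18 to 0.24 for Acsl1.

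The count called at E10.5 against young adult was 14, and 11 to 14 with single arrays left out. Against young adult at E19.5 it was 1, and became 0 with the 6 arrays alone, 0 with sex as a block, 2 with the hybridization covariate, 3 with a log2 limit of 1, 8 with the adjusted p alone, and 0 to 1 with single arrays left out. Between E10.5 and E19.5 it was 11, against 5 with the 6 arrays alone and 18 with the adjusted p alone. The 1 probe set passing between old and young adults (Fabp4 1424155_at) became 0 with the 6 arrays alone, 0 with sex as a block, 2 after filtering, and 0 to 4 with single arrays left out. It stayed at 1 with another probe set passing under quantile normalization (Slc27a1 1435658_at), with the hybridization covariate (Fabp3) and without the young adult mixed array (Gpihbp1). That covariate also moved Lpl to -3.78 and Acsl1 to -3.57 at E10.5 and Lpl to -1.38 at E19.5 (each minus young adult), and took Slc27a1 to -0.32 (adjusted p = 0.165) for E10.5 minus E19.5. The 9 daily tests that passed became 15 with quantile normalization and 19 with the hybridization covariate. The 7 pathway genes lower at E10.5 became 11 with median centring, which also moved the lower share of all DEGs from 43.7% to 57.6% at E19.5 against young adult and from 32% to 61.4% for E10.5 against E19.5 (50.5% with quantile normalization, which gave 47.3% for E10.5 against young adult). The cause of these changes was not tested.

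From E10.5 to E11.5, 2 probe sets passed, and 0 to 3 with single arrays left out (also chosen after seeing the data). The replicate numbers of these stages share only a number, since deviations of same-numbered arrays correlated at 0.222, -0.254 and 0.167. With the 6 arrays, 0 passed without the replicate block and 0 with the replicate block, where Fabp4 stayed at 1.85 (limma adjusted p = 0.112, against 0.19 without it). Without detection calls, levels under 5 set no lower bound on a fold change.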
